A study of Mus musculus with 8 samples.

Results

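Immunoglobulin variable (V) segments encode most of the antigen-binding domain of antibodies, and 188 of them were among the 18835 genes with values in the deposited expression table. They were taken by name, as every row with values whose symbol begins with Ighv, Igkv or Iglv followed by a number. The table lists 346 such segments, and 158 of these carry no values. Of the 188 with values, 92 (of 183 listed) belong to the heavy chain, 94 (of 160 listed) to the kappa light chain and 2 (of 3 listed) to the lambda light chain. RNA had been sequenced from whole hearts of mice with autoimmune myocarditis, in which immunization with cardiac myosin inflames the heart muscle. VEGF-C C156S, a variant of a growth factor for lymphatic vessels that binds VEGFR-3, had been injected into the peritoneum of 4 animals at 1 µg per day from day 7 to day 10 after the immunization. PBS had been injected over the same days into the other 4 animals. All 8 animals were BALB/cAJcl males aged 10 weeks and all had been immunized, and the hearts were taken in week 3, so both groups are diseased and no unimmunized heart enters any value below. The series title names lymphatic endothelial cells, whereas the tissue label of every sample is heart, and Myh6, the main myosin heavy chain of the adult mouse heart, lay at 980079 normalized reads or more in each library.

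Values are given as normalized reads, which are reads divided by a size factor of the library, and fold changes are VEGF-C over PBS on the deposited log2 scale, so a negative one means less in VEGF-C hearts. Read totals over the genes with values were 53.7 to 65.2 M per VEGF-C library and 61.7 to 76.8 M per PBS library. Each library is 1 animal, and the replicate numbers are those of the table's columns, which are not tied to animal numbers. PBS replicate 1 stood apart from the other libraries in the V segments, so results that rest on it are given with and without it. The 188 members are those that the authors kept, with at least 44 reads over the 8 libraries, and 24 of them had no read in at least 1 library. A segment read in only a single group could be kept through that group, so counts over the members describe these segments and not all 346.

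A B cell precursor cuts and joins its DNA so that a V segment meets a joining (J) segment, with a diversity (D) segment between them in the heavy chain, and its descendants inherit the joint. Naive B cells carry many different joints and modest amounts of immunoglobulin RNA, whereas plasma cells, the antibody-secreting descendants of activated B cells, hold very large amounts of the RNA of the joint their clone carries. In RNA of whole tissue, fewer cells of this lineage and less RNA per cell cannot be told apart. The first number of a segment's name gives its subgroup, whose members resemble each other in sequence, so Ighv4-2 and Ighv4-1 are both of heavy subgroup 4.

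The V exons of 7 segments are shown because the results turn on them: the heavy pair with the largest differences, both lambda segments, and 3 called kappa segments, of which Igkv12-46 led a library. They are germline reference sequences from the GENCODE M21 transcripts (GRCm38, from a strain other than BALB/c), written 5′ to 3′ in the sense of the gene. Each is taken from the last exon of its gene, which holds the end of the leader and the whole V region, and is cut to its last 300 bases where the exon is longer; the deposited values use another build, so no coordinates are given. Ighv4-2 and Ighv4-1 lie on the minus strand of chromosome 12, and capitals mark the 13 of 307 exon bases at which they differ (95.8% identity).
Ighv4-2: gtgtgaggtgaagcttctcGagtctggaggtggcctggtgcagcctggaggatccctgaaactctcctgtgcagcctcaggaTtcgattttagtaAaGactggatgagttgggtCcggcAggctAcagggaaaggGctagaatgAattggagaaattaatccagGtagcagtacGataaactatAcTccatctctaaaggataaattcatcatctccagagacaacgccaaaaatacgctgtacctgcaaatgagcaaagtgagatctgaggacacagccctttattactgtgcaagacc
Ighv4-1: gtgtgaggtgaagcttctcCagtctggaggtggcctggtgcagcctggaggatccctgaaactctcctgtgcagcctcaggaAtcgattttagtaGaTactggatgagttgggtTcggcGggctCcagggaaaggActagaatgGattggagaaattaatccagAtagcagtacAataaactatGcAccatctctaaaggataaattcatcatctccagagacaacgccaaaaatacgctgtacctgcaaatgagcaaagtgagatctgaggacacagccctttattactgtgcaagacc
Ighv4-2 is classed as a pseudogene in that annotation, and its reading frame holds 1 stop codon in 101 codons, against 0 in Ighv4-1. Iglv1 and Iglv2, the only lambda V segments with values, lie on the minus strand of chromosome 16, and they differ at 9 of 305 exon bases (97.0% identity), of which capitals mark the 8 in the stretch shown.
Iglv1: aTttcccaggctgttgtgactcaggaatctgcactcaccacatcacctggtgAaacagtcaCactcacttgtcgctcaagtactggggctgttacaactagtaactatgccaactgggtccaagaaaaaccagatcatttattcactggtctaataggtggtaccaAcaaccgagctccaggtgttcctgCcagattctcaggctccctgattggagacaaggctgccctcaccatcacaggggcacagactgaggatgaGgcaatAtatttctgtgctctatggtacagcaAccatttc
Iglv2: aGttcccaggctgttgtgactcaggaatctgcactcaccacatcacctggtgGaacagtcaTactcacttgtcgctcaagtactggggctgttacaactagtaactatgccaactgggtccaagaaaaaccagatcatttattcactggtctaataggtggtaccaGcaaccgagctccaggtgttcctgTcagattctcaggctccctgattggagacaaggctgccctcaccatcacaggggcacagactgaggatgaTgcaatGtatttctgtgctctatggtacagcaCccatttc
Igkv9-120 (plus strand of chromosome 6), Igkv12-46 and Igkv7-33 (both on the minus strand of chromosome 6) are 3 of the kappa segments that were called lower in VEGF-C hearts. Capitals mark the 26 bases from the last cysteine codon to the end, which open the third complementarity-determining region, the stretch completed by the joint with a J segment.
Igkv9-120: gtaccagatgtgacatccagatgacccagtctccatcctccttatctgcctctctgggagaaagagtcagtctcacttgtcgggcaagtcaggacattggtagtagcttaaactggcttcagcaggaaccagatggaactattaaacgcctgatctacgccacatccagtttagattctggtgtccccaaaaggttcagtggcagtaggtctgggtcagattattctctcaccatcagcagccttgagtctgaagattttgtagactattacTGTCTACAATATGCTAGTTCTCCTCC
Igkv12-46: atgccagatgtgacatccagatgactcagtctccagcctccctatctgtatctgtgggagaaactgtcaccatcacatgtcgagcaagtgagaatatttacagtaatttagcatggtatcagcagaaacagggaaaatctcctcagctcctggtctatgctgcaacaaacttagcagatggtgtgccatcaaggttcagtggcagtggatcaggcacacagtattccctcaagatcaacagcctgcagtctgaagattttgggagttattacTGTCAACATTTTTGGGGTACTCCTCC
Igkv7-33: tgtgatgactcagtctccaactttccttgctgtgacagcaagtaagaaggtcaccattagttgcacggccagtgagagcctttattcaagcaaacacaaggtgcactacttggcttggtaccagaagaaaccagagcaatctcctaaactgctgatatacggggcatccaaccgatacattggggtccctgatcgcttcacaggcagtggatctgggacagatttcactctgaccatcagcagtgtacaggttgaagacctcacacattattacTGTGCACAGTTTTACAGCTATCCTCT
Near copies were common in the family. Of the 188 members, 103 had another segment of their class with at least 95% identity over the V exon and 18 had one with at least 98%, so reads may be split or moved between such segments and the value of a single segment is uncertain to that extent.

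Summed over the heavy segments, VEGF-C hearts held less V segment RNA on average than PBS hearts, and the same was seen in the kappa and lambda classes, but PBS replicate 1 went the other way. Heavy segments summed to 7187, 7132, 5927 and 6387 normalized reads in VEGF-C replicates 1 to 4, against 4122, 52345, 21732 and 21029 in PBS replicates 1 to 4. The VEGF-C libraries lay close together, PBS replicates 2 to 4 were all above them and PBS replicate 1 was below all of them, so the groups overlapped. The means were 6658 ± 609 in VEGF-C and 24807 ± 20083 in PBS (SD, n = 4 each), a ratio of 0.268. It was 0.210 without PBS replicate 1 and 0.426 without PBS replicate 2.

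Kappa segments summed to 19089, 23558, 17006 and 19504 normalized reads in VEGF-C hearts, against 8209, 99138, 57806 and 49204 in PBS hearts. The order of the libraries was the same, with PBS replicate 1 lowest and PBS replicate 2 highest of the 8. The ratio of the means was 0.369 for kappa, 0.288 without PBS replicate 1 and 0.515 without PBS replicate 2. The lambda segments summed to 2185, 2771, 1362 and 1250 normalized reads in VEGF-C hearts, against 706, 25423, 5256 and 4643 in PBS hearts, a ratio of 0.210 and of 0.161 without PBS replicate 1. PBS replicate 2 stood far above all other libraries in this class, and without it the lambda ratio was 0.535. As a share of all reads over the genes with values, the V segments took 0.0411%, 0.0480%, 0.0352% and 0.0393% in VEGF-C hearts and 0.0211%, 0.293%, 0.146% and 0.120% in PBS hearts. The highest PBS library held 12.7 times the heavy V segment level of the lowest, against 1.21 times in VEGF-C. No test was made of these sums.

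**Figure D1:**
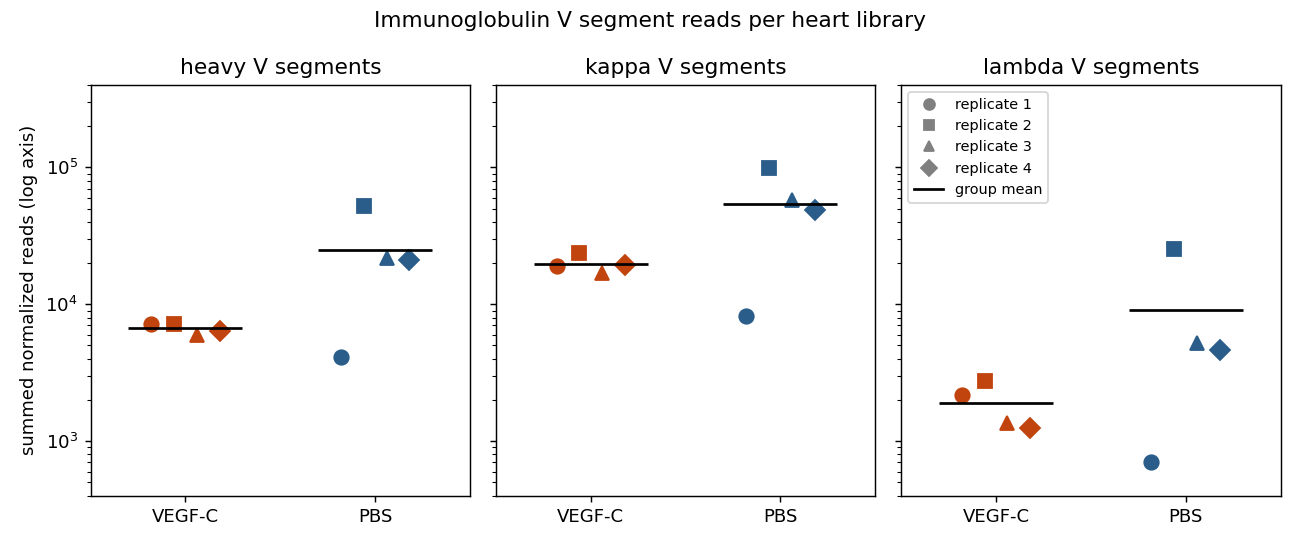
Summed normalized reads (log axis) of heavy, kappa and lambda V segments in each heart library, VEGF-C left and PBS right. Symbols are replicates and bars are group means; in each class the 4 VEGF-C libraries lie between PBS replicate 1 and PBS replicates 2 to 4.

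Segment by segment, most fold changes were negative and few passed the test. limma was fitted to the log2 values of all 18835 genes, with Benjamini-Hochberg adjustment over all of them and a threshold of 0.05, and it called 15.7% of all genes. Of the 92 heavy segments, 5 were called lower and 0 higher in VEGF-C, where 8.61% of all genes were called lower and 7.05% higher. Of the 94 kappa segments, 5 were called lower and 0 higher, and of the 2 lambda segments 0 were called. These shares are below that of all genes, so the limma calls with all 8 libraries do not by themselves set the family apart. The authors' calls, given below, had larger shares of V segments lower than of all genes. So did the fit without PBS replicate 1, but that library was singled out for its low values in these same segments. More calls lower are to be expected without it, so that fit does not set the family apart either. At an unadjusted p under 0.05 in limma, 20 heavy, 14 kappa and 0 lambda segments were lower and 0 were higher, beside 16.3% of all genes lower and 16.0% higher.

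The direction was less evenly divided than among all genes. The fold change was negative in 85 of 92 heavy, 76 of 94 kappa and 2 of 2 lambda segments, and in 49.8% of all genes. The median log2 fold change was -1.10 for heavy, -0.87 for kappa and -1.49 for lambda segments, and 0.00 for all genes. The values of all VEGF-C libraries lay below all PBS libraries in 6 heavy, 3 kappa and 0 lambda segments, beside 11.6% of all genes, and the reverse held in 0 members, beside 11.5% of all genes. The members share libraries and cells, so their fold changes are not independent of each other. In the authors' deposited table, 25 heavy, 19 kappa and 1 lambda segments had an adjusted p under 0.05 with a negative fold change, beside 11.4% of all genes, and the 10 segments called in limma were among them.

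PBS replicate 1 decided how many segments passed. Over the 8 libraries it held the lowest value in 113 of 188 members, and PBS replicate 2 held the highest in 88. Without PBS replicate 1, limma called 48 heavy, 43 kappa and 2 lambda segments lower and 8.7% of all genes lower. Each library was left out in turn by plan, but this one was singled out by the members' own values. The rise in calls is therefore no separate support for a difference. The medians were then -1.78 for heavy, -1.68 for kappa and -2.38 for lambda segments, whereas without PBS replicate 2 they were -0.75, -0.46 and -0.69 for heavy, kappa and lambda segments. Without PBS replicate 1, the calls with all 8 libraries recurred in 5 of 5 heavy and 4 of 5 kappa segments. With PBS replicates 1 and 2 both left out, a choice made after seeing the data, 29 heavy, 28 kappa and 2 lambda segments were called lower, beside 4.3% of all genes.

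**Figure D2:**
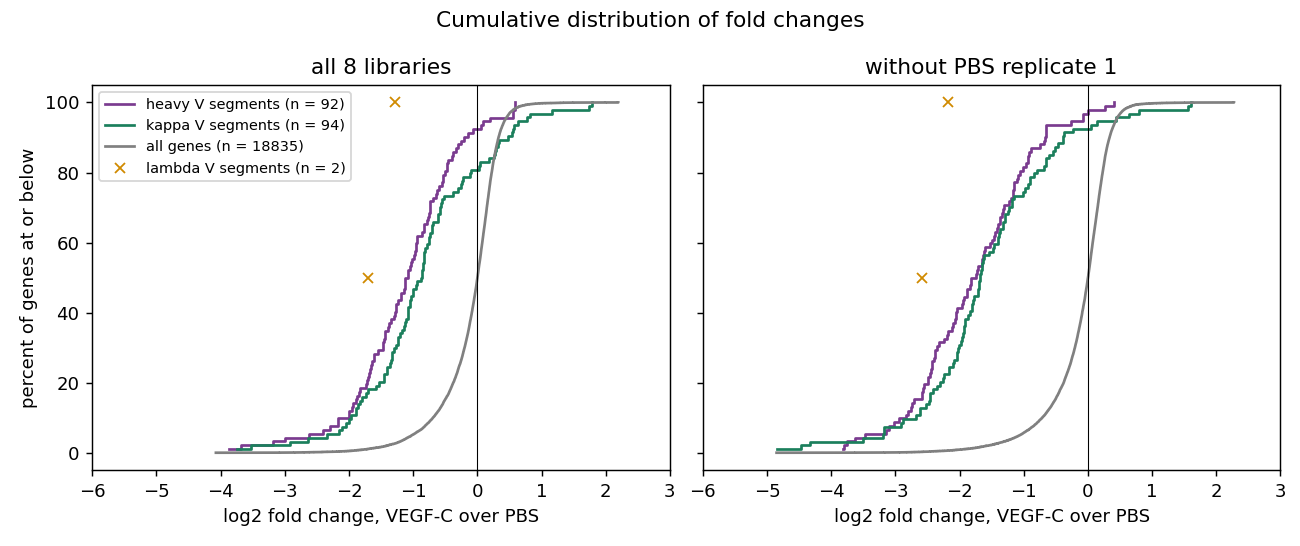
Cumulative percent of genes at or below each log2 fold change (VEGF-C over PBS), for heavy, kappa and lambda V segments and all genes, with all 8 libraries (left) and without PBS replicate 1 (right). The heavy median is at -1.10 on the left and -1.78 on the right, while the curve of all genes stays centred near 0.

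Among heavy segments, Ighv4-2 and Ighv4-1 showed the largest differences. Ighv4-2 lay at 119, 61.1, 73.9 and 48.6 normalized reads in VEGF-C hearts, against 1266, 8093, 627 and 225 in PBS hearts. Every PBS library was above every VEGF-C library, and the PBS libraries differed widely among themselves. The log2 fold change was -3.87 ± 0.86 (SE), with a limma adjusted p of 0.0154 that became 0.153 at most under the alternatives, where limma-voom and the robust variance fit lost the call. Ighv4-1, whose exon is close in sequence to that of Ighv4-2 (above), lay at 37.1, 9.09, 26.9 and 29.8 normalized reads in VEGF-C hearts and at 401, 2481, 226 and 63.2 in PBS hearts. The groups did not overlap here either, and the PBS libraries kept the order they had for Ighv4-2. Its log2 fold change was -3.69 ± 0.88, with a limma adjusted p of 0.0210. The call was lost in limma-voom (0.193), in the robust variance fit (0.0674), without VEGF-C replicate 2 (0.0540) and without PBS replicates 1 and 2 together (adjusted p in limma 0.0554). The ratio of Ighv4-1 to Ighv4-2, which have equal V exon lengths, was between 0.149 and 0.614 in VEGF-C hearts and between 0.281 and 0.360 in PBS hearts. Whether reads of one of these segments were assigned to the other was not tested.

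The other called heavy segments were far less abundant. Ighv1-26 lay at 43.5, 46.8, 29.1 and 19.9 normalized reads in VEGF-C hearts, against 57.8, 150, 131 and 104 in PBS hearts. The groups did not overlap, with PBS replicate 1 the nearest to the VEGF-C libraries. The log2 fold change was -1.55 ± 0.34 with a limma adjusted p of 0.0150, and the call held under every alternative tried (highest adjusted p 0.0445). Ighv9-4 lay at 22.3, 15.6, 16.8 and 16.6 normalized reads in VEGF-C hearts and at 26.0, 138, 188 and 109 in PBS hearts, with a log2 fold change of -2.18 ± 0.49 (adjusted p in limma 0.0169, lost in limma-voom at 0.0835). PBS replicate 1 lay just above the VEGF-C libraries and the other PBS libraries well above them. Ighv5-15, named after its value was seen, completed the called heavy segments with a log2 fold change of -1.88 ± 0.47 (adjusted p in limma 0.0243).

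Igkv9-120 had the smallest p of the kappa segments. It lay at 321, 163.7, 155 and 127 normalized reads in VEGF-C hearts, against 908, 509, 1171 and 330 in PBS hearts. The groups stood just apart, with the highest VEGF-C library next to the lowest PBS library, and PBS replicate 1 was among the high PBS libraries for this segment. The log2 fold change was -1.83 ± 0.39 (limma adjusted p 0.0135). The call held without each library in turn and was lost only when PBS replicates 1 and 2 were both left out (0.0610). Igkv9-129, of the same subgroup, lay at 5.30, 10.4, 2.24 and 9.95 normalized reads in VEGF-C hearts and at 25.2, 82.2, 49.9 and 17.8 in PBS hearts, again with no overlap. Its log2 fold change was -1.998 ± 0.475 (limma adjusted p 0.0203), and the call was lost without VEGF-C replicate 1, VEGF-C replicate 3 or PBS replicate 3 (highest adjusted p 0.0575) and without PBS replicates 1 and 2 together (0.0898).

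Igkv7-33 was close to absent from VEGF-C hearts. It had 2.12, 0, 0 and 0 normalized reads in VEGF-C replicates 1 to 4, against 3.25, 27.4, 204 and 143 in PBS replicates 1 to 4. Only PBS replicates 3 and 4 held more than 100 normalized reads, and PBS replicate 1 was near the VEGF-C level. In reads as counted, the 4 VEGF-C libraries held 2 and the 4 PBS libraries 442, a PBS over VEGF-C ratio of 167.7 with an exact 95% interval of 46.1 to 1389 that covers counting error only. The limma adjusted p was 0.0271, and the call was lost without VEGF-C replicate 1, 2, 3 or 4 and without PBS replicate 3 or 4 (highest adjusted p 0.0682), and in limma-voom (0.153). In those 6 fits without a library the fitted log2 fold change, which depends on the offset of the log scale at such low reads, was between -3.68 and -2.86.

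Igkv12-46 differed from most of the family in its order of libraries, and was 1 of 2 members with their highest value in PBS replicate 1. It lay at 251, 538, 120 and 212 normalized reads in VEGF-C hearts, against 2034, 385, 1091 and 624 in PBS hearts. PBS replicate 1, lowest for most segments, was the highest library here, and VEGF-C replicate 2 lay above PBS replicate 2, so the groups overlapped. The log2 fold change was -1.80 ± 0.52 (limma adjusted p 0.0429), and the call was lost without any of 6 of the 8 libraries (all but VEGF-C replicate 2 and PBS replicate 2; highest adjusted p 0.109), as well as in limma-voom and the robust variance fit and without PBS replicates 1 and 2 together (highest adjusted p 0.110). Igkv3-2, named after its value was seen, was the fifth called kappa segment, with a log2 fold change of -2.34 ± 0.69 (adjusted p in limma 0.0453).

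Neither lambda segment passed the test with all 8 libraries. Iglv1 lay at 1833, 2458, 1063 and 1087 normalized reads in VEGF-C hearts, against 568, 20963, 4307 and 3597 in PBS hearts, with a log2 fold change of -1.29 ± 0.84 (adjusted p in limma 0.322). Iglv2 lay at 352, 313, 299 and 162 normalized reads in VEGF-C hearts and at 138, 4460, 949 and 1045 in PBS hearts, with a log2 fold change of -1.70 ± 0.80 (adjusted p in limma 0.174). Both followed the family's order, with PBS replicate 1 lowest and PBS replicate 2 highest. Without PBS replicate 1 both were called lower, at an adjusted p of 0.0242 for Iglv1 and 0.00807 for Iglv2 in limma.

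The segments with the highest mean reads did not pass the test, apart from Ighv4-2. Igkv10-96 had the highest mean of the kappa class and lay at 653, 1316, 819 and 1712 normalized reads in VEGF-C hearts, against 216, 5489, 4350 and 2583 in PBS hearts. The log2 fold change was -0.87 ± 0.85 (limma adjusted p 0.516), and it was called lower without PBS replicate 1 (0.00607). Ighv5-17, second to Ighv4-2 in the heavy class, lay at 504, 657, 122 and 169.1 normalized reads in VEGF-C hearts, against 56.9, 5232, 1709 and 485 in PBS hearts. VEGF-C replicates 1 and 2 lay above PBS replicates 1 and 4 here, and the log2 fold change was -1.30 ± 1.14 (limma adjusted p 0.467). The other segments of highest mean were Ighv3-2, Ighv2-9, Ighv7-3 and Ighv3-8 in the heavy class and Igkv1-110, Igkv14-126, Igkv1-117, Igkv8-28 and Igkv3-4 in the kappa class. Their log2 fold changes ran from -1.85 (Ighv7-3) to -0.75 (Ighv3-8) in the heavy class and from -2.92 (Igkv8-28) to -0.83 (Igkv1-117) in the kappa class, and none passed with all 8 libraries. Without PBS replicate 1 all 9 were called lower, at limma adjusted p from 0.000943 (Ighv2-9) to 0.0355 (Ighv3-8).

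For Igkv5-37 and Ighv8-12 a single library held most of the reads, and Ighv2-2 and Igkv6-25 were highest in a VEGF-C library. Igkv5-37 had 4.24, 0, 0 and 2.21 normalized reads in VEGF-C hearts, against 3.25, 1336, 12.3 and 164.5 in PBS hearts, with a log2 fold change of -3.75 ± 1.34 (adjusted p in limma 0.0833, and 0.0203 without PBS replicate 1). Ighv2-2 lay at 215, 67.5, 171 and 922 normalized reads in VEGF-C hearts and at 68.3, 565, 637 and 572 in PBS hearts. Igkv6-25 lay at 209, 145, 2004 and 345 normalized reads in VEGF-C hearts and at 56.1, 569, 540 and 561 in PBS hearts. VEGF-C replicate 4 was the highest for Ighv2-2, VEGF-C replicate 3 for Igkv6-25 and PBS replicate 2 for Igkv5-37. Ighv8-12 lay at 75.3, 63.7, 130 and 217 normalized reads in VEGF-C hearts, against 77.3, 307, 293 and 2001 in PBS hearts, where PBS replicate 4 was far above the rest.

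The kappa segments with the largest positive fold changes also varied widely among the VEGF-C libraries. Igkv12-38 had 136, 1056, 4.48 and 13.3 normalized reads in VEGF-C hearts, against 11.4, 19.6, 63.1 and 3.24 in PBS hearts, with a log2 fold change of 1.74 ± 1.32 (adjusted p in limma 0.394). Igkv4-81 had 56.2, 11.7, 0 and 64.1 normalized reads in VEGF-C hearts, against 0, 3.91, 7.88 and 0.810 in PBS hearts, with a log2 fold change of 1.79 ± 0.84 (adjusted p in limma 0.170). Without VEGF-C replicate 3, Igkv4-81 was called higher (2.62, adjusted p in limma 0.0328). The VEGF-C libraries disagreed among themselves, with VEGF-C replicate 2 highest for the first and VEGF-C replicate 3 at 0 for the second. In the heavy class the largest were Ighv5-2 at 0.58 ± 0.75 and Ighv1-37 at 0.58 ± 0.69 on the log2 scale (limma adjusted p 0.633 and 0.602).

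By subgroup, the mean sum was lower in VEGF-C in 15 of 15 heavy, 19 of 20 kappa and 2 of 2 lambda subgroups. The groups did not overlap in 3 subgroups, heavy 4, kappa 7 and kappa 9. The 3 segments of kappa subgroup 9 summed to 382, 197, 213 and 177 normalized reads in VEGF-C hearts, against 951, 752, 1758 and 759 in PBS hearts, and 2 of the 3 were called. The largest subgroup, heavy 1 with 38 segments, had 1 called segment, 34 negative fold changes and a median of -0.99. Kappa subgroup 4, with 26 segments, had 0 called, 18 negative fold changes and a median of -0.88. Heavy subgroup 11 showed how far a single library could carry a subgroup, with 86.9, 10.4, 58.3 and 23.2 normalized reads in VEGF-C hearts, against 53.7, 3708, 308 and 151 in PBS hearts. Kappa subgroup 11, a lone segment, was the exception in direction, with a mean of 82.2 ± 96.7 in VEGF-C and 34.7 ± 17.2 in PBS. The 15 members that the annotation classes as pseudogenes (11 heavy, 4 kappa) had negative fold changes throughout and a median of -1.13, against -0.999 for the other 173.

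Evenness, the way the reads of a class are divided among its segments, was lowest in PBS replicate 1 in the heavy and the kappa class. It is given here as the effective number of segments (inverse Simpson index), the number of equally abundant segments that would give the same chance of drawing the same segment in a pair of reads. For the heavy class it was 30.9, 27.9, 33.9 and 24.3 in VEGF-C hearts, against 8.88, 18.5, 30.3 and 32.2 in PBS hearts. PBS replicates 1 and 2 lay below all other libraries, and PBS replicates 3 and 4 lay within the VEGF-C range. The means were 29.2 ± 4.1 in VEGF-C and 22.5 ± 10.9 in PBS (SD, n = 4 each), which differ by less than the SD of the PBS hearts. The PBS mean was 27.0 without PBS replicate 1 and 31.3, above the VEGF-C mean, without PBS replicates 1 and 2.

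For the kappa class the effective number was 40.4, 40.7, 30.2 and 27.3 in VEGF-C hearts, against 11.9, 27.5, 40.2 and 33.1 in PBS hearts. Here PBS replicate 1 alone was apart from the rest. The means were 34.6 ± 6.9 in VEGF-C and 28.2 ± 12.1 in PBS (SD, n = 4 each), and the PBS mean was 33.6 without PBS replicate 1 and 36.7, again above the VEGF-C mean, without PBS replicates 1 and 2. In the heavy class the low value of PBS replicate 1 came with Ighv4-2, and with the pseudogenes left out of the class that library had an effective number of 24.2. PBS replicate 2 then had 21.9, beside 22.1 to 32.5 in VEGF-C hearts. Leaving out the pseudogenes takes away Ighv4-2, the leading heavy segment of these PBS libraries, so their rise was bound to follow. The pseudogene class is that of the reference strain, and whether it holds in BALB/cAJcl was not tested. The number of segments with at least 1 read barely differed between libraries at an equal number of reads, at 85.7 to 88.7 of 92 heavy segments in VEGF-C and 87.0 to 88.4 in PBS.

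The leading segment changed from library to library. Counted per kb of exon, Ighv4-2 held 31.2% of the heavy reads in PBS replicate 1 and 16.0% in PBS replicate 2, but at most 2.94% in any other library. The leaders in VEGF-C replicates 1 to 4 were Ighv3-2 with 9.60%, Ighv5-17 with 8.39%, Ighv3-2 with 6.91% and Ighv2-2 with 14.9%. PBS replicates 3 and 4 were led by Ighv3-2 with 7.94% and Ighv8-12 with 9.70%. In the kappa class Igkv12-46 held 24.3% and Igkv9-120 11.6% in PBS replicate 1, and Igkv14-126 held 9.47% in PBS replicate 2. Igkv12-46 held at most 2.23% elsewhere. The kappa leaders in VEGF-C replicates 1 to 4 were Igkv4-59 with 5.54%, Igkv10-96 with 5.74%, Igkv6-25 with 11.6% and Igkv10-96 with 9.07%, and those of PBS replicates 3 and 4 were Igkv10-96 with 7.77% and Igkv1-110 with 8.71%. So, counted per kb, the only kappa segment to lead in both groups was Igkv10-96, and the only heavy segment to do so was Ighv3-2. The heavy result depends on the measure. Counted by reads without regard to length, Ighv5-17 led VEGF-C replicate 2 and PBS replicate 3, and Ighv3-2 led VEGF-C replicates 1 and 3 only. The lambda class kept its order in all 8 libraries, with Iglv1 at 76.9% to 88.0% in VEGF-C and 76.3% to 81.5% in PBS.

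**Figure D3:**
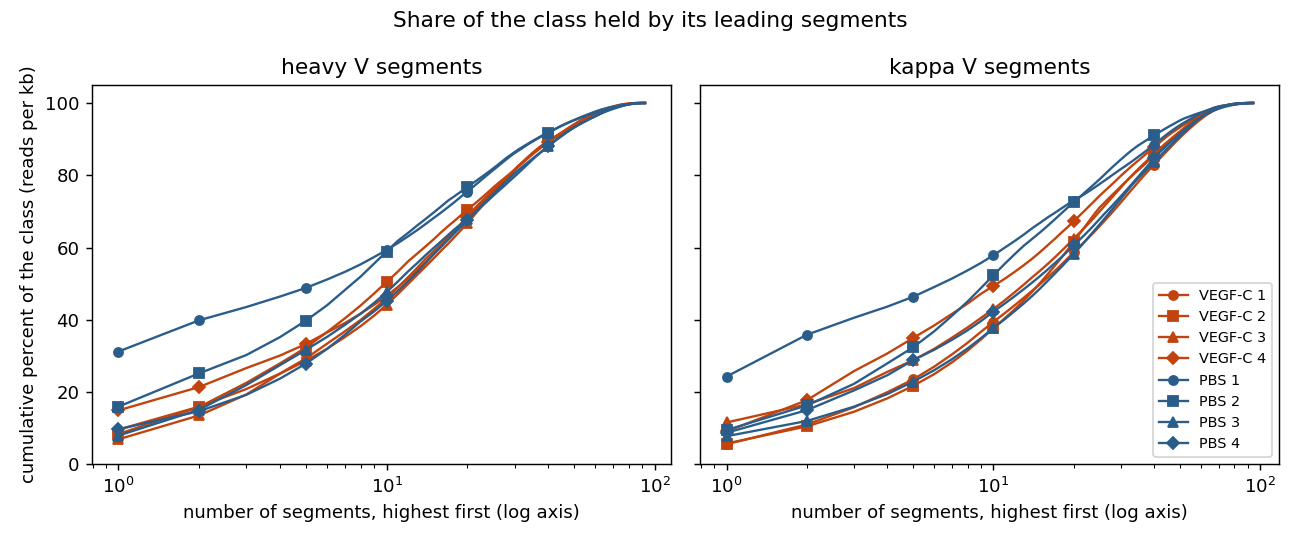
Cumulative percent of heavy and kappa V segment reads per kb (vertical axis) held by the leading segments of each library, ranked highest first (log axis). The curve of PBS replicate 1 starts at 31.2% in the heavy and 24.3% in the kappa class, above the other libraries.

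The spread between libraries was wide for V segments and, with all libraries kept, wider in PBS than in VEGF-C. The SD of the log2 values within a group had a median over the members of 0.76 in VEGF-C and 1.73 in PBS, against 0.18 and 0.19 over all genes. It was larger in PBS in 166 of the 188 members. The constant region genes with Jchain were much alike, at 0.67 in VEGF-C and 1.55 in PBS (larger in PBS in 11 of 13). Plasma cell markers, described below, had 0.21 and 0.35 (larger in PBS in 9 of 10). B cell markers went the other way, at 0.77 in VEGF-C and 0.33 in PBS (larger in PBS in 1 of 11). These SDs take in PBS replicate 1 and were not computed without it. PBS replicate 1 was the lowest PBS library in 78 heavy, 85 kappa and 2 lambda members, and PBS replicate 2 the highest in 97. The make-up of the classes was compared by the Bray-Curtis distance between segment shares, which is 0 for equal shares and 1 for no shared segment. For the heavy class the median distance was 0.365 within VEGF-C (6 pairs), 0.468 within PBS (6 pairs) and 0.438 between the groups (16 pairs). For the kappa class it was 0.340 within VEGF-C, 0.429 within PBS and 0.382 between the groups. By the medians, libraries of different groups were no farther apart in segment usage than PBS libraries were from each other. The wide distances within PBS were those of pairs with PBS replicate 1 or 2, at 0.386 to 0.524 (heavy) and 0.411 to 0.492 (kappa). PBS replicates 3 and 4 lay close together, at 0.274 (heavy) and 0.266 (kappa). The closest heavy pair, VEGF-C replicate 1 and PBS replicate 3, crossed the groups at 0.268, and a pair within VEGF-C, replicates 1 and 3, was equally close at 0.268.

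The balance between the chains shifted less than their levels. The kappa to heavy ratio of summed V reads was 2.66, 3.30, 2.87 and 3.05 in VEGF-C hearts, against 1.99, 1.89, 2.66 and 2.34 in PBS hearts, so the groups overlapped only at PBS replicate 3 and VEGF-C replicate 1. Lambda segments took 10.3%, 10.52%, 7.42% and 6.02% of light chain V reads in VEGF-C hearts and 7.92%, 20.4%, 8.34% and 8.62% in PBS hearts, where PBS replicate 2 stood out. Measured against the constant region Igkc, the common part of all kappa chains, the kappa V reads kept a ratio of 0.418 to 0.581 in VEGF-C hearts and 0.473 to 0.641 in PBS hearts.

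The constant region genes, which give each chain its class, mostly had negative fold changes too. Of the 13 constant region genes with values (of 15 listed, Jchain counted among them), 12 fold changes were negative, 2 were called lower and 0 higher, with a median log2 fold change of -1.21, beside 49.8% of all genes with a negative fold change, 8.61% called lower and 7.05% called higher. Ighd, the heavy chain of naive B cell IgD, lay at 267, 217, 160 and 65.2 normalized reads in VEGF-C hearts, against 996, 571, 327 and 704 in PBS hearts (log2 fold change -1.91 ± 0.43, limma adjusted p 0.0164). The groups did not overlap, and PBS replicate 1, lowest in V segments, was the highest library for Ighd. The call was lost without PBS replicates 1 and 2 together (limma adjusted p 0.0911). Iglc3, a lambda constant gene, was called at -1.80 ± 0.51 (limma adjusted p 0.0402), a call that was lost in limma-voom (0.116), in the robust variance fit (0.0781) and without any library other than PBS replicate 1 (highest adjusted p 0.104). Ighm, the IgM heavy chain, was at -1.85 ± 0.71 (0.100), Ighg1 at -1.89 ± 0.70 (0.0926), Iglc2 at -2.14 ± 0.71 (0.0664), Igkc at -0.83 ± 0.55 (0.329) and Jchain, which joins IgM and IgA into polymers, at -0.77 ± 0.63 (0.433), as log2 fold changes with limma adjusted p in parentheses. Without PBS replicate 1, Ighm (-2.55, 0.0104), Iglc2 (-2.87, 0.00538), Igkc (-1.48, 0.00600) and Jchain (-1.57, 0.00115) were called lower, given in the same way. Igha, the IgA heavy chain, had a log2 fold change of 0.21 ± 0.82 (adjusted p in limma 0.885), and was called lower without PBS replicates 1 and 2 (-1.40, adjusted p in limma 0.02495).

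The shares of Igha and Ighg1 set PBS replicates 1 and 2 apart from the others. The evenness of the heavy V segments had done so only with Ighv4-2 and the other pseudogenes counted. Of the reads of all heavy constant genes, Igha took 36.0%, 51.1%, 32.7% and 61.6% in VEGF-C hearts, against 8.05%, 3.65%, 47.0% and 40.3% in PBS hearts. Ighg1, the IgG1 heavy chain, took 23.4%, 26.0%, 26.1% and 9.39% in VEGF-C hearts, against 53.8%, 49.1%, 15.3% and 19.05% in PBS hearts. PBS replicates 3 and 4 lay within the VEGF-C range for both, and PBS replicates 1 and 2 outside it. In PBS replicates 1 and 2 Ighv4-2 led the heavy class. The other heavy constant genes did not set both of them apart alike. PBS replicate 1 lay within the VEGF-C range for Ighm (26.1%), Ighg2b (6.52%), Ighg2c (2.04%) and Ighg3 (0.748%). PBS replicate 2 lay outside it for Ighm (45.3%), Ighg2b (0.914%) and Ighg2c (0.390%) and within it for Ighg3 (0.476%). For Ighd, PBS replicate 1 at 2.74% lay above the range and PBS replicate 2 at 0.151% below it.

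B cell markers gave a different order of libraries from the V segments. Of 11 B cell markers, 8 were called lower in VEGF-C and 0 higher, with a median log2 fold change of -1.44, beside 8.61% of all genes called lower and 7.05% called higher. Among the PBS libraries, replicate 1 was the highest for 4 of the 11 and the lowest for 3. Cd79a, a signalling chain of the B cell receptor that was picked for display after its values were seen, lay at 390, 436, 235 and 128 normalized reads in VEGF-C hearts, against 588, 1150, 619 and 973 in PBS hearts (log2 fold change -1.56 ± 0.36, limma adjusted p 0.0186). The groups did not overlap, and PBS replicate 1 was the lowest PBS library but lay above every VEGF-C library. Of 10 plasma cell markers, 2 were called lower and 0 higher, with a median of -0.70. Those were Irf4, a transcription factor of plasma cells and activated lymphocytes (-0.94 ± 0.16, limma adjusted p 0.00461), and Tnfrsf13b, a receptor for B cell survival factors (-0.67 ± 0.14, limma adjusted p 0.0129). Mzb1, a chaperone of antibody secretion, was like Cd79a not named by rule. Mzb1 lay at 58.3, 84.4, 62.7 and 67.4 normalized reads in VEGF-C hearts and at 54.5, 228, 132 and 121 in PBS hearts, in nearly the order of the V segments. Jchain is given above. The remaining plasma cell markers were not called, at log2 fold changes of -1.25 (Derl3), -0.72 (Tnfrsf17), -0.25 (Prdm1), -0.12 (Sdc1), -0.12 (Txndc5) and 0.05 (Xbp1). Among the PBS libraries, replicate 1 was the lowest for 7 of the 10 plasma cell markers. Of 12 T cell markers 0 were called, with a median of -0.11, and of 6 heart muscle genes 0 were called, with a median of 0.34. The part of B cell and plasma cell numbers in the V segment values was not tested.

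**Figure D4:**
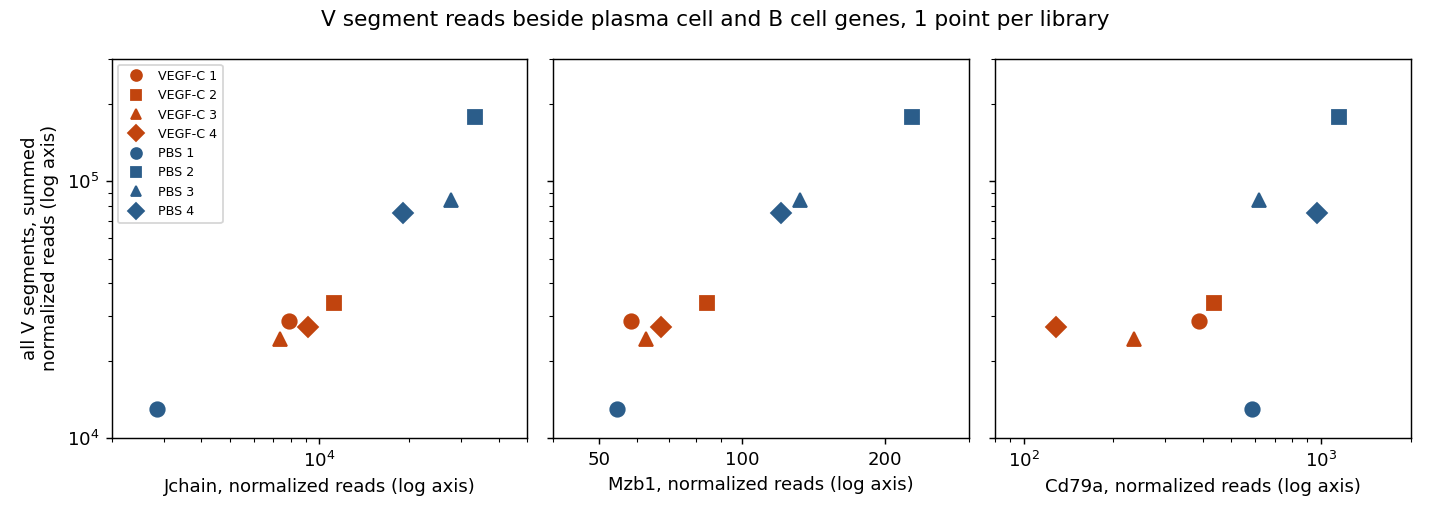
Summed normalized reads of all V segments (vertical log axis) against Jchain, Mzb1 and Cd79a (horizontal log axes, normalized reads), 1 point per library. PBS replicate 1 lies at the low end for Jchain (2833) and Mzb1 (54.5) but above every VEGF-C library for Cd79a (588).

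The variation around the group means was also compared with that of other genes. By the correlation of deviations from the group means over the 8 libraries, on the log2 scale, the protein-coding genes most like the summed V segments were Zbtb7c (Pearson r 0.997), Smo (0.991), Frmd4b (0.981), Clip3 (0.977) and Pcdhb9 (0.976). The same measure was 0.983 for Igkc, 0.975 for Jchain, 0.971 for Mzb1, 0.442 for Cd79a and -0.358 for Ighd. These are descriptions over 8 points that share their libraries, with the widest gap between PBS replicates 1 and 2. The genes from Zbtb7c to Pcdhb9 were picked as the highest of all protein-coding genes outside the family, so high values come with that choice. Regulation in common was not tested. Zbtb7c itself lay at 340 in PBS replicate 1 and at 815 in PBS replicate 2, and its difference between the groups did not pass the test (log2 fold change 0.21 ± 0.22, limma adjusted p 0.553).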

How the data were processed

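RNA of 8 hearts (4 VEGF-C, 4 PBS) was measured, grouped by the treatment each label states. The submitters' processing notes name the build GRCm39 and the tools DESeq2 1.38.3, Subread 2.0.1, featureCounts, STAR 2.7.10a and Trim Galore 0.6.10. The annotation, the strandedness of counting and the handling of reads that match several segments were not stated by any source used here. Such reads can change the value of a segment with near copies. Differences between BALB/cAJcl and the reference strain can change the value of any segment. The authors deposited log2 values, each log2(x + 4) as read back from the table, with x the reads over the library's size factor, and 100% of the values came out as whole reads within 0.01 reads. The authors' own fold changes and adjusted p-values are deposited in the same table, and the adjusted p-value is missing for 10 members. The replicates are separate animals per the labels' numbers.

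The planned count test was not used, since the values are on a log2 scale. limma 3.58.1 (R 4.3.3) was fitted to the log2 values of all 18835 genes with treatment as the only factor, a mean-variance trend, 6 residual degrees of freedom and Benjamini-Hochberg adjustment over all genes, two-sided, threshold 0.05. The method was tested on simulated data with the same dispersion in both groups. That does not show how it behaves at the wider and unequal spread of the V segments. Classes, exon lengths and sequences came from GENCODE M21 by gene ID, which matched all 188 members and 98.1% of all genes. The members and lists were chosen with earlier results of these data known. Named were the 6 segments with the highest mean, the 4 called with the smallest p and the 2 largest changes in each direction (mean of at least 10 normalized reads) of the heavy and of the kappa class, both lambda segments, the leader of each library by reads, the constant region genes, and the 5 genes most like the V segment sum. Alternatives were an offset of 1, a mean of at least 10 normalized reads, library totals, upper-quartile and TMM factors, limma-voom, robust variance, leaving out each library, leaving out the pseudogenes, reads per kb, and the Shannon index. V segment promoters were not analysed here, and 1 gene of the B cell list is not reported here.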

Additional observations from a re-analysis of the deposited data

Results flagged for a closer look

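In 98 groups of 4 libraries, the gap between the highest or lowest library and the nearest of the others was set against the whole range of the group, and 5 groups passed Dixon's 95% critical ratio for 4 values. For single genes the ratio was taken on the log2 values, so it cannot be worked out directly from the normalized reads given here. Chance flags about 1 group in 20, so 5 flags in 98 groups are near the number that chance alone would give. Ighv2-2 was far lowest in PBS replicate 1 (ratio 0.946), with 68.3 normalized reads against 565 to 637 in the other PBS libraries. Igkv6-25 was likewise far lowest in PBS replicate 1 (ratio 0.977), with 56.1 normalized reads against 540 to 569. Igkv7-33 was highest in VEGF-C replicate 1 (ratio 1.0), which rests on 2 reads, since the other VEGF-C libraries held 0. Ighg1 was far highest in PBS replicate 2 (ratio 0.891), with 186355 normalized reads against 19531 to 24981 in the other PBS libraries. Igkc was highest in VEGF-C replicate 2 (ratio 0.968), with 56409 normalized reads against 33101 to 33662 in the other VEGF-C libraries. No explanation of these was tested.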

How the results depend on the processing

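The number of called V segments depended on the libraries and on the variance model, while the median fold change of each class stayed negative under every alternative. Without each library in turn, 4 to 48 heavy, 1 to 43 kappa and 0 to 2 lambda segments were called lower, the highest counts being those without PBS replicate 1, and all genes gave 1684 to 2906 calls (1956 without VEGF-C replicate 1 and 1684 without VEGF-C replicate 3). limma-voom called 1 heavy and 2 kappa segments and the robust variance fit 3 and 3. Without PBS replicates 1 and 2, chosen after seeing the data, 29 heavy, 28 kappa and 2 lambda segments and 1267 of all genes were called. The class medians ran from -1.78 to -0.75 (heavy), -1.68 to -0.46 (kappa) and -2.38 to -0.69 (lambda) over the libraries left out. With library totals the median log2 fold change of all genes was -0.19, and the fit gave 3572 genes lower and 243 higher, and upper-quartile factors gave 1920 lower and 797 higher, against 1621 and 1328 as reported. The Shannon index gave effective numbers of 43.9 in VEGF-C and 37.6 in PBS (heavy), 49.1 and 43.6 (kappa) and 1.54 and 1.63 (lambda), with the directions that the inverse Simpson index had over all 8 libraries. Signs turned in genes that were not called with all 8 libraries. Igkv4-81 was called higher without VEGF-C replicate 3, so that 0 to 1 kappa segments were called higher over the libraries left out. Over the libraries left out, the log2 fold change of Ighv5-2 ran from -0.12 (without VEGF-C replicate 1) to 1.08, that of Ighv1-37 from -0.074 (without PBS replicate 1) to 1.02, that of Igkv4-68 from -0.91 (without PBS replicate 1) to 0.58, that of Igkv6-25 from -0.54 (without PBS replicate 1) to 0.72, that of Ighg3 from -1.02 to 0.22 (without PBS replicate 2) and that of Igha from -0.70 (without PBS replicate 1) to 0.80. Without PBS replicates 1 and 2 it was -0.57 for Ighv1-37, -0.85 for Igkv4-68, -0.52 for Igkv6-25 and -1.40 for Igha, which was then called lower (limma adjusted p 0.02495). Igkv4-68 was also at -0.15 with library totals and at -0.013 with upper-quartile factors. The cause of these changes was not tested. No paired analysis was possible because no animal number occurs in both groups and the column numbers tie to no animal. Depth limits the segments with few reads, where the log2 scale understates the change.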

Other observations

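Joining segments, the pieces to which V segments are joined, had negative fold changes as well. Of 3 heavy J segments with values, 2 were called lower, Ighj4 (log2 fold change -1.79 ± 0.44, limma adjusted p 0.0243) and Ighj2 (-1.50 ± 0.44, limma adjusted p 0.0450), and of 3 kappa J segments Igkj2 was called lower (-1.30 ± 0.39, limma adjusted p 0.0473), beside 8.61% of all genes. Ighj4 lay at 10.6, 15.6, 20.2 and 13.3 normalized reads in VEGF-C hearts, against 23.6, 140, 56.0 and 67.3 in PBS hearts, and the groups did not overlap. No D segment had values. T cell receptor V segments, joined in the same way in T cell precursors, had 4 members with values, of which 0 were called, with a median log2 fold change of -0.08.

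Rag1, part of the recombinase that cuts V segments in lymphocyte precursors, had 0, 0, 133 and 0 normalized reads in VEGF-C hearts, against 0, 0, 12.3 and 4.86 in PBS hearts. Dntt, which adds bases at the joints, lay at 12.7, 10.4, 58.3 and 11.1 in VEGF-C hearts and at 0, 11.7, 35.0 and 14.6 in PBS hearts. VEGF-C replicate 3 was the highest library for both, and 3 of the 5 genes of this list have no values. Of 5 germinal centre genes with values (of 6 listed), Bcl6, a repressor needed in germinal centre B cells and also made by other cells, was called higher in VEGF-C (log2 fold change 0.87 ± 0.18, limma adjusted p 0.0114), and 0 were called lower, beside 7.05% of all genes called higher and 8.61% lower.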
